A study of Callithrix jacchus with 3 samples.

Results

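Olfactory receptors and keratins are large gene families whose best known sites are the nose and the epithelia, and their RNA was described here in marmoset testis. The species is Callithrix jacchus, a small New World monkey. The members were the protein-coding entries of the testis RNA-seq table whose gene symbol is OR followed by a number, letters and a number, or KRT followed by a number, with the keratin-associated KRTAP genes left out. Entries named by a LOC number first received their NCBI Gene symbols, and the entries of a symbol were summed. This gave 40 symbols, 21 olfactory receptors and 19 keratins, of 10633 named protein-coding symbols in the table. The RNA was total RNA of wild type adult testis, sequenced with a directional mRNA protocol. Per the labels there were 2 replicates and the animals were 41 and 51 months old. The values come as 1 column of reads per kilobase of transcript per 1000000 reads (RPKM). The values therefore carry no replicate error, no difference between members could be set against a spread between animals, and no test was made. In whole tissue, few cells with much of an RNA and many cells with little of it cannot be told apart.

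Olfactory receptors are G protein-coupled receptors. An olfactory neuron uses mainly a single one of them, and odorant binding acts through the G protein GNAL, the adenylyl cyclase ADCY3 and a cyclic nucleotide-gated channel. Most of their genes lie in clusters of related genes with the coding sequence in a single exon, and RNA of a few has been described in testis and sperm. Keratins are the intermediate filament proteins of epithelia. They polymerise as pairs of a type I and a type II chain, and different pairs are used in simple epithelia, in stratified epithelia, in the hair shaft and in the inner root sheath of the follicle.

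The labelled tissue was checked against marker genes. The spermatid genes PRM1 and TNP1 stood at 7177 and 1678 RPKM, the Leydig cell gene INSL3 at 404 RPKM and the Sertoli cell gene CLU at 68.0 RPKM. Other genes of these somatic cells were lower, with STAR of Leydig cells at 4.91 RPKM and WT1 and AMH of Sertoli cells at 3.68 and 0.148 RPKM. The spermatocyte genes SYCP1 and DMC1 were at 49.9 and 4.35 RPKM. The spermatogonial genes ZBTB16, GFRA1 and KIT were between 0.290 and 0.854 RPKM, and the smooth muscle actin gene ACTA2 was at 19.4 RPKM. Of the olfactory neuron markers, ADCY3 was at 0.549 and CNGA2 at 0.0140 RPKM, and OMP and GNAL had no named entry. Many testis markers had none either. These were AKAP4 and ACRV1 of spermatids, SYCP3 and PIWIL1 of spermatocytes and UTF1 of spermatogonia. The others were SOX9 and INHA of Sertoli cells, CYP17A1 and HSD3B2 of Leydig cells, and MYH11, PECAM1 and VWF of peritubular cells and vessels. The table lists transcripts above 0 alone, so a gene without a named entry was not analysed here and is not shown to be silent.

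Nearly all members lay close to the bottom of the range of listed genes. Their RPKM ran from 0.00540 to 5.02 with a median of 0.0382, a level below which 5.03% of the named protein-coding symbols fell. The median over all named symbols was 2.46 RPKM. A level of 1 RPKM or more was reached by 2 of the 40 members, both keratins (KRT12 and KRT5), where the share over all named symbols was 64.3%. Under 0.1 RPKM were 31 members, against 11.1% of all named symbols. The floor was thus shared by both families, 17 of 21 olfactory receptors and 14 of 19 keratins being under 0.1 RPKM. It was not the lowest level in the table, whose lowest value was 0.000844 RPKM. Under 0.01 RPKM lay 4 members, OR6C6, KRT20, KRT75 and KRT80, where the share over all named symbols was 0.940%.

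**Figure D1:**
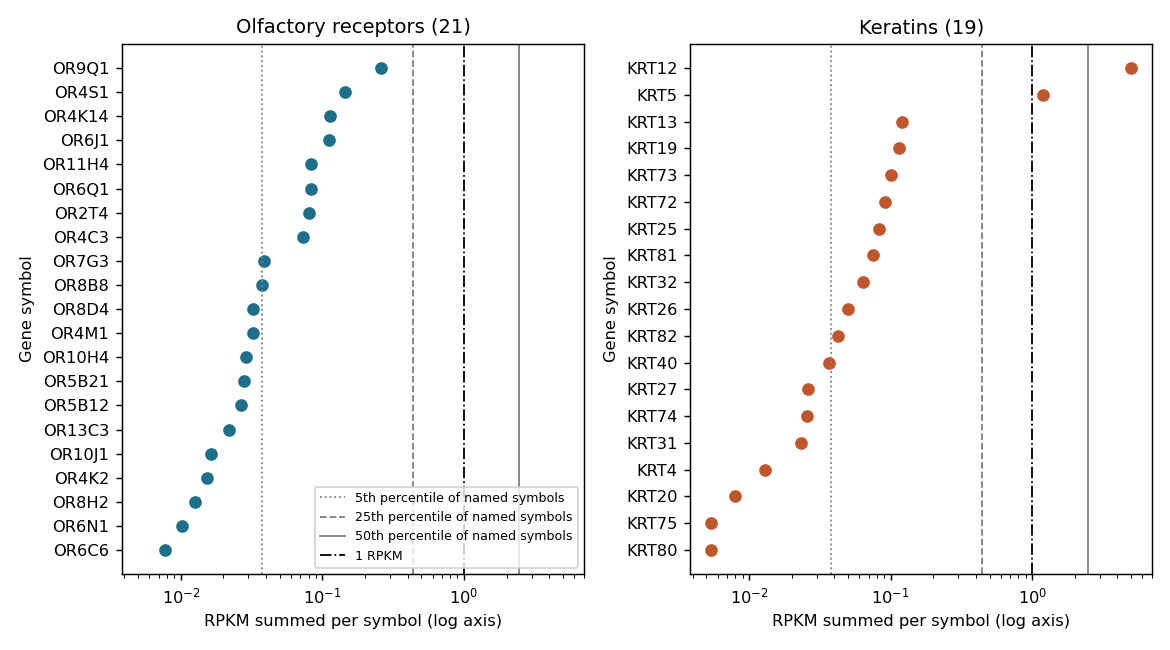
RPKM summed per symbol on a log axis for the 21 olfactory receptors (left) and 19 keratins (right), 1 point per symbol, with lines at the 5th, 25th and 50th percentiles of all named protein-coding symbols (0.0377, 0.439 and 2.46 RPKM) and at 1 RPKM. Apart from KRT12 and KRT5, all points lie left of the 25th percentile line.

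No olfactory receptor came near 1 RPKM. The 21 receptors ran from 0.00778 to 0.259 RPKM with a median of 0.0325, and their sum of 1.26 RPKM was 0.000823% of the RPKM of all protein-coding entries. OR9Q1 was the highest, at 0.259 RPKM, followed by OR4S1 at 0.144, OR4K14 at 0.114 and OR6J1 at 0.112 RPKM. These were the 4 receptors at 0.1 RPKM or more, a level that 88.9% of all named symbols reached, and 19.5% of named symbols stood below OR9Q1. A group of 4 came next between 0.0735 and 0.0835 RPKM, made up of OR11H4, OR6Q1, OR2T4 and OR4C3. OR7G3 and OR8B8, the last of the 10 highest, were at 0.0386 and 0.0377 RPKM.

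The step from OR4C3 down to OR7G3, 1.90-fold, was the widest between receptors next to each other in the order, and that from OR9Q1 to OR4S1, 1.80-fold, came second. No receptor was therefore as much as 2 times the next one down. The 3 lowest were OR8H2 at 0.0125, OR6N1 at 0.0102 and OR6C6 at 0.00778 RPKM. OR10J1 was the fifth lowest, at 0.0164 RPKM.

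RPKM divides by transcript length, so how few reads these values stand for was bounded from the span of each entry. Of the 21 receptor entries, 20 spanned less than 2000 bp, from 930 bp upward, and OR7G3 spanned 20092 bp. A transcript is no longer than its span, so RPKM times the span in kilobases is the most reads per 1000000 that an entry can stand for. This upper limit was 0.00723 reads per 1000000 for OR6C6 and 0.245 for OR9Q1. Over the 20 short entries it summed to 1.35 reads per 1000000. The total number of reads is not given, so these limits could not be turned into counts, and the order of receptors with such low values may rest on few reads.

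Short genes as a set were read beside the receptors. The part of length in the receptor values was not tested. Among the 466 named symbols with 1 entry and a span under 2000 bp, which include the 20 short receptors, 52.6% were at 1 RPKM or more and 16.1% were under 0.1 RPKM, with a median of 1.38 RPKM.

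**Figure D2:**
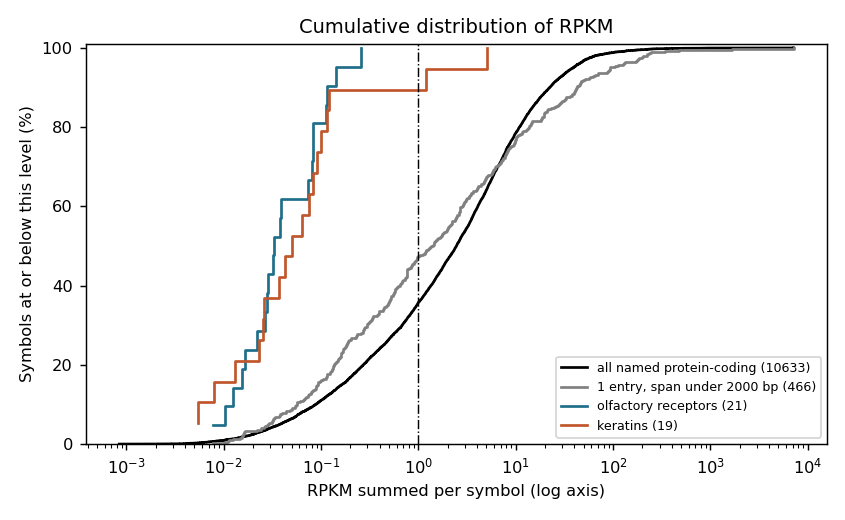
Percent of symbols at or below each RPKM (log axis) for olfactory receptors, keratins, symbols with 1 entry and a span under 2000 bp, and all named protein-coding symbols. The curves of both families lie far left of the others, and only the keratin curve crosses 1 RPKM (dash-dotted line), with its last 2 members.

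The receptors came from 10 receptor families and 7 chromosomes, with coordinates as the deposited table gives them on a genome build that is not stated in the sources used here. Families 51 to 56, the class I receptors that resemble those of fish, held none of them. The RefSeq gene table (assembly calJac240_pri) holds 153 olfactory receptor symbols, 22 of them class I, and 20 of the 153 had an entry. The share of all RefSeq symbols with an entry is not given here, so this count stands without a base rate. OR6C6 was named by the RNA-seq table itself. The Ensembl gene table, tried after the data had been seen, adds 4 receptors at the same floor: the class I genes OR52M1 at 0.0603, OR51M1 at 0.0375 and OR52A5 at 0.00584 RPKM, and OR2Z1 at 0.0482 RPKM. With them the class I count is 3, so the absence of class I from the members holds only for the naming used. Why none of the 22 class I symbols of RefSeq had a named entry was not tested.

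By family, the 5 members of family 4 ran from 0.0152 (OR4K2) to 0.144 RPKM (OR4S1), and the 4 of family 6 from 0.00778 (OR6C6) to 0.112 RPKM (OR6J1). The 3 members of family 8 were all under 0.04 RPKM, between 0.0125 and 0.0377. The pair of family 5, OR5B12 and OR5B21, had nearly equal values of 0.0266 and 0.0281 RPKM. Levels within a family thus spread up to 14.4-fold, in family 6. Receptors that are near copies of each other could share reads, and how the authors treated such reads is not given in the sources used here. How alike the members are in sequence was not analysed.

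Chromosome 11 held 9 of the receptors and chromosome 10 held 5. Joining member receptors less than 500 kb apart gave 4 groups with 12 receptors, and 9 had no other member that close. Entries with unresolved LOC names and the receptors added by the Ensembl gene table were not joined. One of the latter, OR2Z1 (chr22:8391793-8392848), lies within that distance of OR7G3, which is among the 9. The group with the highest receptor held OR6Q1, OR9Q1, OR5B12 and OR5B21 within 416 kb (chr11:113869923-114285691), at 0.0832, 0.259, 0.0266 and 0.0281 RPKM, a 9.73-fold range. OR9Q1 itself lay at chr11:113975782-113976726 on the plus strand. An unnamed protein-coding entry 35.2 kb from it was at 0.244 RPKM, so the highest receptor had a neighbour of about its own level. On chromosome 10, OR4K2, OR4M1, OR4K14 and OR11H4 lay within 303 kb at 0.0152, 0.0324, 0.114 and 0.0835 RPKM. OR4S1 and OR4C3, 19.9 kb apart on chromosome 11, were at 0.144 and 0.0735 RPKM. Across the 4 groups, the highest receptor of a group was 1.16 to 9.73 times the lowest.

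The neighbours of the receptors were read from the table, as the nearest named entry on either side. Unresolved LOC numbers and UniProt-style names counted as named entries here. No receptor entry overlapped another named entry. A neighbour at 1 RPKM or more flanked 9 of the 21, and the share over 13488 named protein-coding entries, counting overlapping entries as neighbours, was 84.2%. TMEM225, the highest such neighbour by single entry, stood at 8.52 RPKM and lay 20.6 kb from OR8D4, which was at 0.0325 RPKM. ZNF672, 203 kb from OR2T4, had an adjacent entry at 8.46 RPKM and was higher in sum, at 16.9 RPKM. OR11H4, at 0.0835 RPKM, lay 25.9 kb from TTC5 at 2.29 RPKM. OR7G3, at 0.0386 RPKM, lay 12.3 kb from the zinc finger gene ZNF317 at 2.85 RPKM. No limit of distance was set, and other such neighbours lay farther off. Among them were CADM3, 212 kb from OR10J1, and SMC2, 351 kb from OR13C3. The 9 receptors with such a neighbour at any distance had a median of 0.0377 RPKM, and the other 12 had a median of 0.0306 RPKM.

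**Figure D3:**
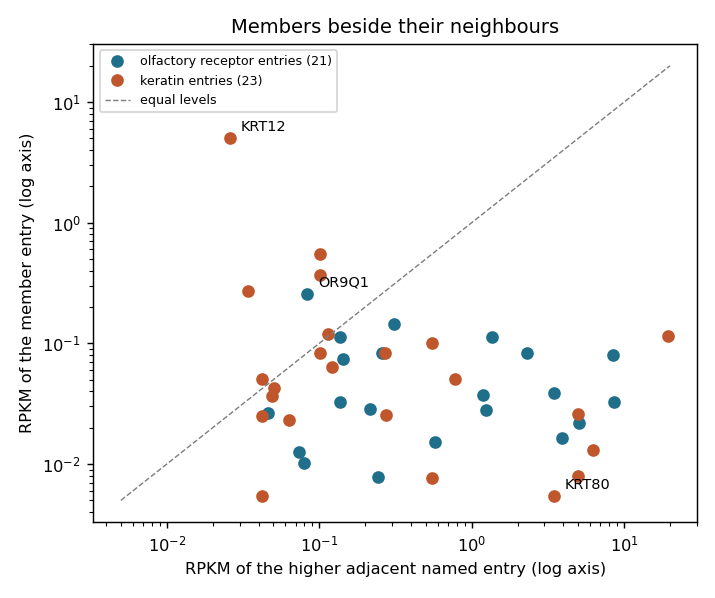
RPKM of each member entry (21 receptor and 23 keratin entries) against that of the higher of its adjacent or overlapping named entries, both on log axes, with a dashed line of equal levels. KRT12 stands far above the line, at 5.02 RPKM beside 0.0259. The receptor entries lie at 0.259 RPKM or below, and their higher neighbours range from 0.0459 to 8.52 RPKM. Whether the levels go together was not tested.

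Genes that carry the receptor signal in the nose spanned a wide range. Of 19 listed genes of olfactory signal transduction, 10 had an entry, 4 of these at 1 RPKM or more (64.3% over all named symbols), with a median of 0.764 RPKM, above that of the receptors and below the 2.46 RPKM of all named symbols. REEP1, an endoplasmic reticulum protein that can aid receptor transport, was at 29.7 RPKM. The cAMP phosphodiesterase PDE4A was at 26.0, the G protein subunit GNB1 at 7.54 and RIC8B, a factor for GNAL, at 1.58 RPKM. These 4 are used in many tissues. The other 6 were under 1 RPKM. The phosphodiesterase PDE1C was at 0.845, the ion exchanger SLC24A4 at 0.684, ADCY3 at 0.549 and STOML3 at 0.142 RPKM. The receptor transporter RTP2 was at 0.0278 and the channel subunit CNGA2 at 0.0140 RPKM. Among taste, trace amine and vomeronasal receptor symbols the table held 1, the taste receptor TAS1R2 at 0.113 RPKM.

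Keratins shared the floor but had exceptions. The 19 symbols ran from 0.00540 to 5.02 RPKM with a median of 0.0502, and summed to 7.10 RPKM. KRT12 alone held 70.7% of that sum. The order broke below KRT5, which was at 1.19 RPKM, 9.89-fold above the next symbol, KRT13, at 0.120 RPKM. Without KRT12 and KRT5, the remaining 17 keratins ran from 0.00540 to 0.120 RPKM with a median of 0.0423, overlapping the range of the receptors.

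KRT12, the type I keratin of the corneal epithelium, was at 5.02 RPKM from 1 entry of 6454 bp on the minus strand (chr5:112668497-112674950). It was above 64.2% of all named symbols and 3.99 times as high as the 21 receptors summed. Its keratin neighbours were at the floor. KRT20, 11.3 kb away, was at 0.00802 RPKM, and KRT27, 82.0 kb away, was at 0.0259 RPKM. KRT12 was thus 626 times KRT20 and 194 times KRT27. KRT3, the type II partner of KRT12 in the cornea, had no named entry.

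KRT5, the type II keratin of basal cells of stratified epithelia, passed 1 RPKM only as a sum. Its 3 entries lay at 2 places that do not overlap, 122 kb apart on chromosome 9. The first place (chr9:41391851-41397318) held 1 entry at 0.272 RPKM. The second (chr9:41519569-41527202) held 2 overlapping entries at 0.552 and 0.367 RPKM, together 0.919, 3.37 times the first. No single entry and neither place reached 1 RPKM. KRT14, the usual type I partner of KRT5, had no named entry, and TP63, a transcription factor of basal cells, was at 0.0677 RPKM.

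The same held for the other 2 members with more than 1 entry. KRT72 had entries at 0.0833 and 0.00773 RPKM, 140 kb apart, and KRT81 had entries at 0.0250 and 0.0507 RPKM, 67.4 kb apart. Over all named symbols, 2499 had more than 1 entry, and in 95 of them (3.80%) the entries did not all overlap. In RefSeq's gene order, KRT2, KRT1, KRT77, KRT76 and KRT3 lie between KRT73 and KRT4. None of these 5 names had an entry, and the interval between KRT73 and KRT4 in the RNA-seq table held the second KRT5 place and the second KRT72 entry. Whether entries at these second places belong to the named gene or to another keratin was not tested, so the summed values of KRT5, KRT72 and KRT81 are uncertain.

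**Figure D4:**
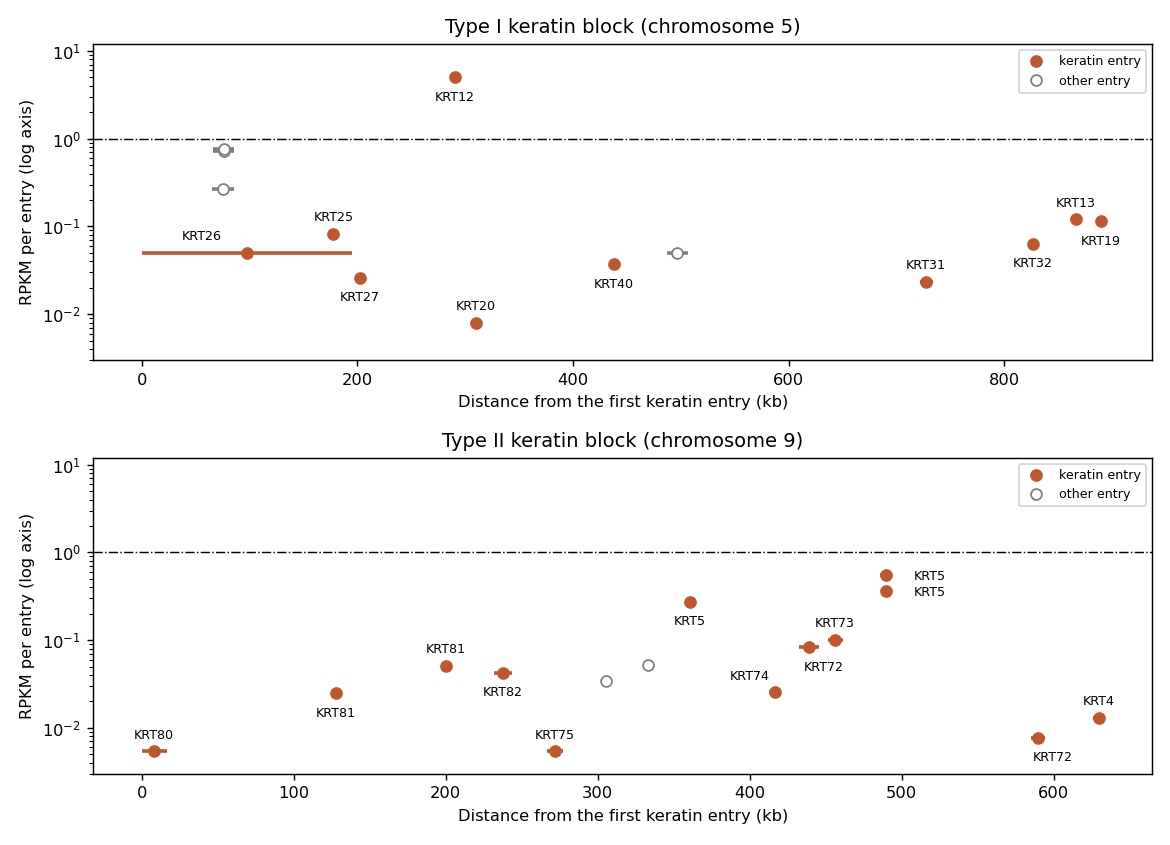
RPKM of each entry (log axis) against distance from the first keratin entry in kb, for the type I block on chromosome 5 (top) and the type II block on chromosome 9 (bottom), with bars for the span of each entry and open circles for entries of other genes. KRT12 is the 1 entry above 1 RPKM (dash-dotted line), KRT5, KRT72 and KRT81 appear at more than 1 place, and the bar of KRT26 runs across other genes.

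Stratified and mucosal keratins other than these were low. KRT13 and KRT4, partners in mucosal epithelia such as that of the oesophagus, were at 0.120 and 0.0130 RPKM. KRT80, found in differentiating epithelia, was the lowest member at 0.00540 RPKM. Of the keratins of simple epithelia, KRT19 was at 0.114 and KRT20, known from gut lining, at 0.00802 RPKM. KRT8, KRT18 and KRT7, which are typical of simple epithelia, had no named entry.

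Of the 12 hair follicle keratins, all but KRT73, at 0.101 RPKM, were under 0.1 RPKM, against 11.1% of all named symbols. The 6 of the inner root sheath ran from 0.0255 (KRT74) up to KRT73, with KRT72 at 0.0910, KRT25 at 0.0830, KRT26 at 0.0502 and KRT27 at 0.0259 RPKM. The 5 of the hair shaft ran from 0.0233 (KRT31) to 0.0757 RPKM (KRT81), with KRT32 at 0.0635, KRT82 at 0.0423 and KRT40 at 0.0369 RPKM. KRT75, of the companion layer, was at 0.00541 RPKM. The range was 3.96-fold over the 6 of the inner root sheath and 3.25-fold over the 5 of the hair shaft. It was 22.3-fold over the 17 keratins without KRT12 and KRT5, and 33.3-fold over the 21 receptors. Such a range tends to widen with the number of genes, so sets of unlike size cannot be compared by it.

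KRT26 has a reservation of its own. Its entry spanned 194928 bp on the minus strand and held the 3 entries of SMARCE1, a chromatin remodelling gene on the same strand at 1.76 RPKM in sum, and the entry of KRT25. Reads of those genes within the KRT26 model cannot be told apart from its own where exons coincide, and exons were not analysed here.

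By type, 10 members were type I, all within 893 kb on chromosome 5, with a median of 0.0569 RPKM. The other 9 were type II, all within 633 kb on chromosome 9, with a median of 0.0423 RPKM. Each type held 1 of the 2 symbols at 1 RPKM or more. All 23 keratin entries were on the minus strand. The nearest named entry was another member for 20 of them and for 5 of the 21 receptors. Unresolved LOC numbers and UniProt-style names counted here as named entries outside the members. Such a name was nearest to several receptors, among them OR4K14 and OR4M1 (both LOC100395132), so both counts depend on naming. KRT26 overlaps SMARCE1 and KRT25 alike, which is a tie. The RefSeq table holds 43 keratin symbols, of which 17 had an entry, 9 of 22 type I and 8 of 21 type II. As for the receptors, the share over all RefSeq symbols is not given here, so nothing about the family is read from this count. KRT19 and KRT81 were named by the RNA-seq table itself.

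At 3 of the 4 borders of the keratin blocks, the flanking gene was higher than the keratin at the edge. KLHL11, 158 kb from KRT19, was at 19.5 RPKM. ATG101, an autophagy gene 68.8 kb from KRT80, was at 3.45 RPKM. The translation factor EIF4B, 184 kb from KRT4, had an adjacent entry at 6.23 RPKM and 37.6 RPKM in sum. At the fourth border, the chemokine receptor gene CCR7, 7.20 kb from KRT26, was at 0.00824 RPKM, below KRT26. SMARCE1, at 1.76 RPKM, lies between CCR7 and KRT25, so this border depends on the long KRT26 entry.

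Other intermediate filament genes had a higher median than the keratins. Of 15 listed, 9 had an entry and 5 of these were at 1 RPKM or more, against 64.3% of all named symbols, with a median of 1.38 RPKM. The mesenchymal filament gene VIM was at 16.5, the nuclear lamin gene LMNB2 at 13.6, SYNM at 2.38 and LMNA at 1.78 RPKM. Of 20 listed junction and linker genes whose proteins can bind keratin filaments, 14 had an entry, with a median of 0.414 RPKM. At 1 RPKM or more were 6 of these, where the share over all named symbols was 64.3%. The highest of this list were PNN at 13.8, the desmosomal plakin DSP at 11.1, PKP4 at 5.09 and JUP at 4.85 RPKM. Under 0.1 RPKM were 6 of the 14, against 11.1% of all named symbols. The epidermal desmosome genes DSG1, DSG3 and DSG4 were between 0.0174 and 0.0213 RPKM.

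Markers of skin and duct epithelium were read beside KRT12 and KRT5. Of 12 listed cornified envelope and epidermal genes, 6 had an entry, with a median of 0.0558 RPKM. The highest were TRPS1 at 1.33, TGM3 at 0.284, TP63 at 0.0677 and CASP14 at 0.0439 RPKM, and the filaggrin gene FLG was at 0.0184 RPKM. Of 10 listed epithelial surface genes, 7 had an entry, with a median of 0.0757 RPKM. EPCAM was at 7.85, OVOL1 at 1.27, CLDN7 at 0.123 and ELF3 at 0.0757 RPKM, and the epithelial cadherin gene CDH1 was at 0.0328 RPKM. The duct transcription factor PAX8 was at 0.0361 RPKM. EPCAM, OVOL1 and TRPS1 are also known outside epithelia, the first 2 in germ cells. The part of epithelial cells in the KRT12 and KRT5 values was not tested.

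**Figure D5:**
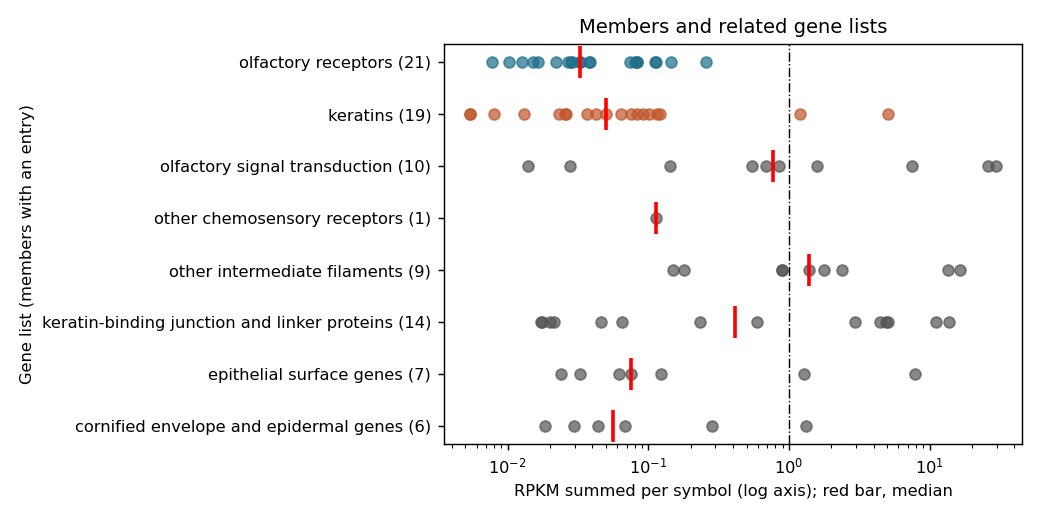
RPKM summed per symbol (log axis) for receptors, keratins and 6 related gene lists, 1 point per symbol with an entry, with the median as a red bar and 1 RPKM as a dash-dotted line. Points of the receptors and keratins crowd between 0.00540 and 0.259 RPKM apart from KRT5 and KRT12, while each list other than that of chemosensory receptors, which has 1 symbol, has at least 1 gene above 1 RPKM.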

How the data were processed

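Testis RNA-seq was used, and the small RNA tables of the series were not. The RPKM values are those the authors deposited, per the file header. Bowtie, TopHat and Cufflinks are the tools named, without roles, per the submitters' processing notes. The genome build, the depth, the filters and how 2 replicates became 1 column are not stated there or in the labels. Of 18365 transcripts listed, all above 0, 16739 were protein-coding. LOC numbers were resolved through the RefSeq gene table, which matched 6593 and left 506. UniProt-style names were shortened where the rest is a RefSeq symbol. Entries of a symbol were summed. The comparison set was all protein-coding symbols, without LOC and UniProt names. Spans are end minus start plus 1.

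The members and lists were chosen with earlier results of these data known. Named were all members at 1 RPKM or more, the 10 highest and 3 lowest of each family, and the 4 highest of each list. Other members, neighbours and markers were named after their values were seen. Summing, naming and locus grouping were tested on simulated data. No sequence table was used. Python 3.11.15 was used with pandas 2.3.3, numpy 2.4.6 and matplotlib 3.10.9.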

Additional observations from a re-analysis of the deposited data

How the results depend on the processing

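No paired analysis was possible because the values are 1 column and no test was made. Of 34 alternatives over 4 results (the count at 1 RPKM or more and the median of each family), 22 left the value as it was or a count within 1.5 times. The receptor count of 0 became 4 at a level of 0.1 RPKM. The keratin count of 2 became 5 at 0.1 RPKM. It became 1 at 5 RPKM, 1 with the highest single entry per symbol, 1 with the table's own names alone, and 1 with sums within a place, chosen after seeing the data. The receptor median of 0.0325 RPKM became 0.0386 with own names alone (3 receptors), 0.0351 without entries under 0.01 RPKM, and 0.0375 with the Ensembl gene table, also chosen after seeing the data. The keratin median of 0.0502 RPKM became 0.0629 with own names alone (12 keratins), 0.0696 without entries under 0.01 RPKM, and 0.0463 with sums within a place. Depth is not given, so the values under 0.1 RPKM have no interval.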
